A study of Homo sapiens with 21 samples.

Results

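The genes examined here were the 46 members of a fixed list of the human nuclear receptor family, taken by symbol from an expression table of 60728 genes. SK-N-BE(2) is a human neuroblastoma cell line grown here in IMDM with serum and insulin, transferrin and selenium, so every library derives from 1 line. The cells were transduced with lentivirus made in HEK293T cells and carrying short hairpin RNAs (shRNA), and total RNA was taken for stranded poly(A) sequencing after 72 hours. The 21 libraries fell into 7 conditions of 3 libraries, labelled Control, then shARID1A.2 and shARID1A.4, then shARID1B.2 with shARID1B.3, and lastly shARID1A/B.2.3 with shARID1A/B.4.2, where ARID1A and ARID1B are alternative subunits of the BAF chromatin remodelling complex. The series calls the samples biological triplicates without saying whether they were separate transductions, so the p values measure the spread between these samples. Of the 46 genes, 33 had a mean of at least 5 over the 21 libraries and were tested, and 13 did not reach it.

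Nuclear receptors are transcription factors with a zinc finger DNA-binding domain and, in most members, a pocket for a lipid-soluble ligand such as thyroid hormone, retinoic acid, a steroid, a sterol or a fatty acid. Many bind DNA as heterodimers with a retinoid X receptor (RXR) and exchange corepressors for coactivators when ligand enters the pocket. Retinoic acid, acting through RAR and RXR, drives differentiation of neuroblastoma cells and is used in treatment of the disease.

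Promoter stretches from RefSeq are shown for 4 receptors whose levels are described below and in which a known kind of regulatory element is easy to see. RefSeq promoter windows matched 41 of the 46 genes, and each stretch ends at or before the base preceding the transcription start, on the strand of the gene, in GRCh38.p14. Capitals mark the motif. For RARB (chr3:25428063-25428262, plus strand, 1 of 4 listed starts) it is a direct repeat with 5 bases between, the arrangement bound by RAR and RXR. For NR1D2 (chr3:23945921-23946120, plus strand, 1 of 2 listed starts) it is the E-box CACGTG, the element of the circadian clock activators. For NR4A3 (chr9:99821685-99821854, plus strand) it is TGACG, the half-site of cyclic AMP response elements, and for NR6A1 (chr9:124771312-124771511, minus strand) it is the palindrome TGACGTCA of the same elements.
RARB: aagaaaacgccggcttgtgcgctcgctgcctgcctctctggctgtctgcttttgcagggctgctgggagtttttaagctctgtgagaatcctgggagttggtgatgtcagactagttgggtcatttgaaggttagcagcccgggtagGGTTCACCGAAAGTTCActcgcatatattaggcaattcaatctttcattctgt
NR1D2: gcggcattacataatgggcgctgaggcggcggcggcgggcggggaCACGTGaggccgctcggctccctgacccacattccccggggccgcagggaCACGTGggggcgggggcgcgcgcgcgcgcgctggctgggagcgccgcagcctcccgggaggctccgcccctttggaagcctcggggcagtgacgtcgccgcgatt
NR4A3: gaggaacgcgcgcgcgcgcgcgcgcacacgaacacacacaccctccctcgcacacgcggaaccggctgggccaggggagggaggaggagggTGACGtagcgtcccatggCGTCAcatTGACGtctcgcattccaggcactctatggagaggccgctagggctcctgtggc
NR6A1: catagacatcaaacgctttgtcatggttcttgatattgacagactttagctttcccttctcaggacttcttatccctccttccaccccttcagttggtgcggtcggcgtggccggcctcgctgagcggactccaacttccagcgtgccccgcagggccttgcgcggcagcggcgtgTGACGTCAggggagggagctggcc
The RARB stretch held 1 direct repeat, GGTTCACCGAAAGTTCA, from 53 to 37 bases before the start. Each copy in a repeat was searched as AGGTCA or as AGTTCA or as GGGTCA or as GGTTCA on both strands, and 0.0598% of the 35116 promoter windows of 200 bases held such a repeat. NR1D2 had 2 E-boxes (5.49% of windows held at least 1), NR4A3 had 3 TGACG half-sites (18.4% of windows), and NR6A1 had the full palindrome, which contains the half-site on both strands (1.57% of windows). These matches describe letters in the windows and not binding.

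The values are counts that the authors divided by a size factor for each library, called normalised counts here. Libraries held 27954334 to 41077638 reads. ARID1A and ARID1B did not follow the labels, and the conditions are therefore named as the libraries labelled in each way. ARID1A was at 34.0% and 35.5% of its Control mean in the libraries labelled shARID1A.2 and shARID1A.4, at 30.4% and 39.3% in those labelled shARID1B.2 and shARID1B.3, and at 89.7% and 86.2% in those labelled shARID1A/B.2.3 and shARID1A/B.4.2. ARID1B was at 38.7% and 53.5%, at 86.3% and 105.1%, and at 44.8% and 32.9% in the same order. Both genes were thus low in the libraries labelled shARID1A, ARID1A alone was low in those labelled shARID1B, and ARID1B was low, with ARID1A closer to its Control level, in those labelled shARID1A/B. All 10 adrenergic neuroblastoma markers had a mean of at least 5, and so had 5 of 6 mesenchymal, 1 of 4 epithelial, 1 of 4 blood, 2 of 3 endothelial and 1 of 3 liver markers. The epithelial, blood, endothelial and liver markers that reached it were EPCAM (mean 122), PTPRC (174), VWF (28.0), KDR (13.8) and ALB (5.77). PTPRC averaged 411 in Control. CD3E, KRT5, PECAM1 and TTR were among those below the mean of 5. The summed adrenergic level ran from 138241 to 490415 between conditions, mostly through MYCN, and its part in the results was not tested. In bulk RNA, fewer cells with a transcript and less transcript per cell cannot be told apart.

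In Control cells, 30 of the 33 tested receptor genes had a mean of at least 5. Per kilobase of annotated exon, the highest levels were those of NR1D2 (458 normalised counts per kb), RXRB (415), RARG (407), ESRRG (384) and ESRRA (382), followed by RARA (322), NR2F6 (318) and THRA (306). The clock repressor NR1D2, the orphan oestrogen-related receptors and the RXRB and RARG genes thus stood at the head of the family, and RARB (25.4 per kb), PPARG (3.84 per kb) and NR4A3 (1.33 per kb) near its end. RXRB and RARG did not differ beyond the spread of the Control libraries, nor did ESRRG and ESRRA, RARA and NR2F6, or NR1D1 (202) and NR2C2 (199), whereas the steps from PPARD (228) to NR1D1 and from NR2C2 to NR2F2 (150) were larger than that spread. The 13 genes below the mean of 5 were THRB, NR1H4, NR1I2, NR1I3, HNF4A, RXRG, NR2E1, NR2E3, ESR1, PGR, NR5A1, NR5A2 and NR0B2. NR1H4, the bile acid receptor, and PGR, the progesterone receptor, were at 0 in all 21 libraries, and the highest single value among the other 11 was 7.78, in NR2E3 and in NR0B2. Another 3 genes passed the mean only through other conditions, ESR2, ESRRB and NR3C2, whose Control means were 1.09, 1.45 and 2.19.

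**Figure D1:**
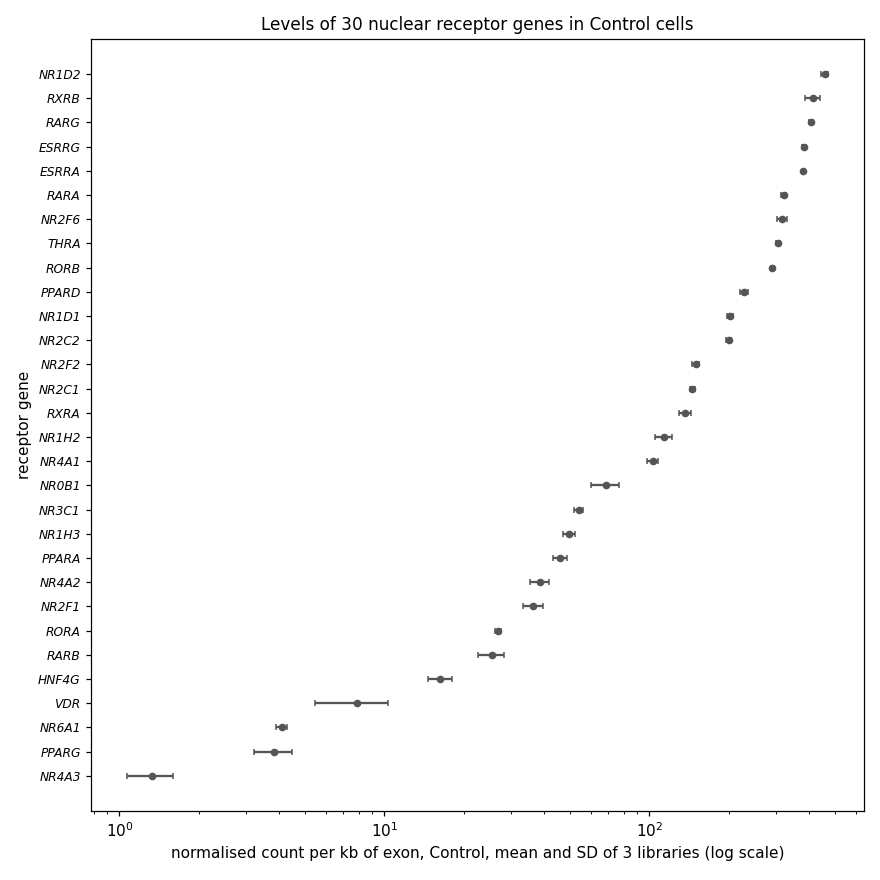
Mean normalised count per kb of annotated exon in the 3 Control libraries for the 30 receptor genes with a Control mean of at least 5 (points, log axis), with the SD of the 3 libraries as bars. NR1D2, RXRB, RARG, ESRRG and ESRRA lie at the top, between 382 and 458, and NR4A3 at the bottom, at 1.33.

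Most tested receptor genes differed from Control in each condition, as did most genes. With limma on log2(value + 1) and a Benjamini-Hochberg adjusted p below 0.05 as the call, 30 of the 33 receptor genes were called in the libraries labelled shARID1A.2 (75.6% of all 18615 genes tested), 30 in shARID1A.4 (73.5%), 21 in shARID1B.2 (65.1%), 24 in shARID1B.3 (63.7%), 27 in shARID1A/B.2.3 (69.0%) and 32 in shARID1A/B.4.2 (70.7%). Higher calls numbered 15 (37.6% of all genes), 16 (37.0%), 13 (31.3%), 14 (31.8%), 16 (35.1%) and 17 (34.8%) in the same order. Lower calls numbered 15 (38.1%), 14 (36.5%), 8 (33.9%), 10 (31.9%), 11 (33.9%) and 15 (36.0%). A mean of at least 20 leaves out ESR2, ESRRB and NR3C2, which passed the mean of 5 only through other conditions than Control. Higher calls then numbered 12, 15, 11, 13, 15 and 14 and lower calls 15, 15, 8, 10, 11 and 15. Of all 15456 genes then tested, 81.8%, 81.0%, 73.1%, 71.6%, 77.3% and 78.0% were called. Scaling to total reads in place of the deposited factors changed the split to 16 higher and 10 lower in shARID1A.2, 20 and 6 in shARID1B.2, and 18 and 14 in shARID1A/B.4.2. That scaling moved the median of all genes by 0.17, 0.14 and 0.19 in these 3 conditions, against medians of 0.01 to 0.02 under the deposited scaling, so differences near this size there depend on the scaling. In shARID1B.2, RARA (0.16), RORA (0.27), NR2F1 (0.21), NR2F6 (0.17), ESRRA (0.16), NR4A1 (0.14) and NR4A2 (0.24) were called higher under that scaling and were not called under the deposited one. The median log2 fold changes of the 33 genes were -0.12, 0.34, 0.08, 0.12, 0.26 and 0.18.

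Calls with a log2 fold change of at least 1 in size were made for 8 receptor genes in the libraries labelled shARID1A.2 (24.5% of all genes), 10 in shARID1A.4 (21.3%), 4 in shARID1B.2 (11.6%), 4 in shARID1B.3 (11.7%), 7 in shARID1A/B.2.3 (16.0%) and 11 in shARID1A/B.4.2 (18.0%). In at least 1 condition, 16 of the 33 genes (48.5%) met this rule, beside 44.5% of all genes. ESR2, ESRRB and NR3C2 were among the 16 and passed the mean of 5 only through conditions in which they were high. Without them, and over the 17738 genes with a Control mean of at least 5, it was met by 13 of 30 receptor genes (43.3%) and by 42.3% of all genes. A mean of at least 20 also leaves them out, and the 6 conditions then had 5, 9, 2, 3, 6 and 8 such calls among 30 receptor genes. Of all 15456 genes then tested, 3265, 2942, 1427, 1478, 2181 and 2358 met the rule. Called higher in all 6 conditions were 5 genes (15.2%), THRA, NR1H2, NR2F2, ESR2 and NR4A3, where 6.51% of all genes did so. Among the 30 receptor genes with a Control mean of at least 5, which leaves out ESR2, these were 4 (13.3%, beside 6.34% of all such genes). With edgeR and with DESeq2 the 5 genes were 3, THRA, NR1H2 and NR2F2, since the shARID1B.3 calls of ESR2 (adjusted p = 0.0713 and 0.136) and NR4A3 (0.08 and 0.153) were lost, and they were also 3 without Control replicate 1, whereas scaling to total reads gave 8 by adding RARA, ESRRA and NR4A2. Called lower in all 6 were 3 genes (9.09%), NR1D2, NR2C2 and NR3C1, where 7.52% of all genes did so. Another 12 genes (36.4%, against 41.7% of all genes) were called higher in at least 1 condition and lower in at least 1 other. The spread between the 3 libraries of a condition was small, with a median SD of 0.07 on the log2 scale over the 33 genes, beside a median SD of 0.46 between condition means.

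**Figure D2:**
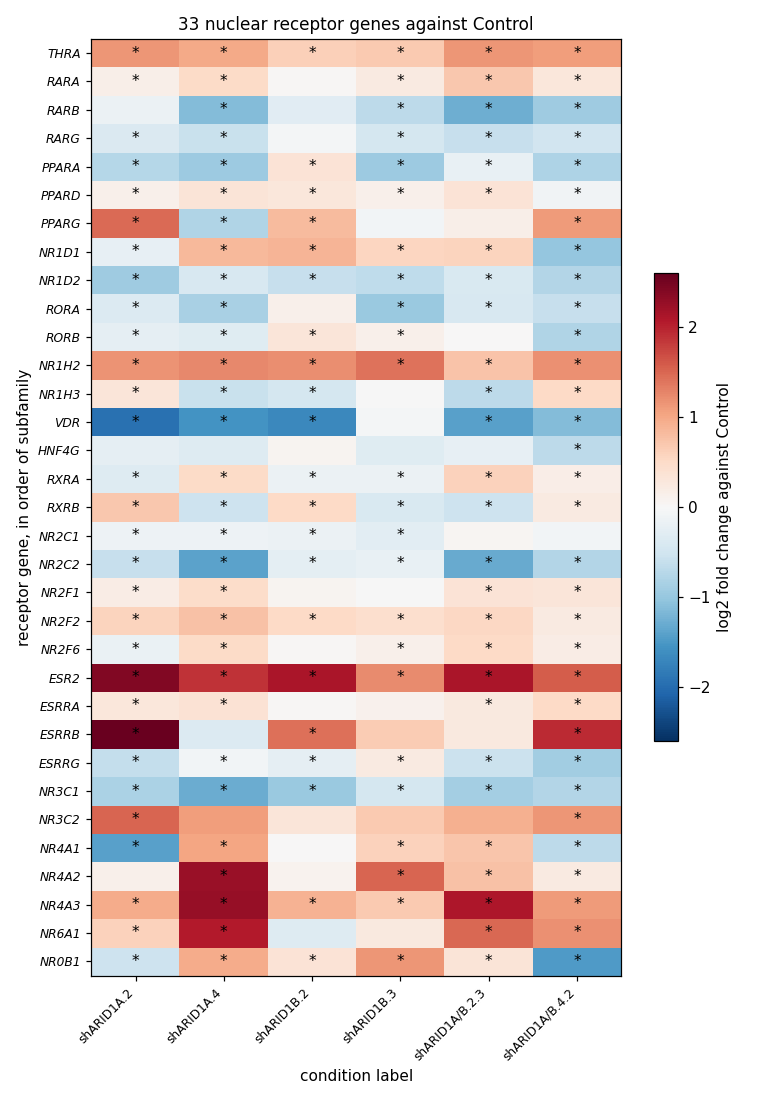
Log2 fold change against Control of the 33 tested receptor genes (rows, by subfamily) in the 6 conditions (columns), with red for higher, blue for lower and an asterisk for an adjusted p below 0.05 (limma). THRA and NR1H2 are red and NR2C2 and NR3C1 blue in every column, while NR4A1, NR0B1, NR1D1 and RXRB change colour between columns of 1 label.

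THRA, which encodes the thyroid hormone receptor alpha (ENSG00000126351.13, chr17:40058290-40093867, plus strand, GRCh38), rose in every condition. Its normalised counts were 2135, 2090 and 2162 in Control. They were 4706, 4755 and 4712 in the libraries labelled shARID1A.2 and 4263, 4205 and 4179 in those labelled shARID1A.4. All 6 values lay above every Control value without overlap. In those labelled shARID1B.2 they were 3294, 3224 and 3297, and in those labelled shARID1B.3 they were 3413, 3331 and 3435. The libraries labelled shARID1A/B.2.3 held 4587, 4722 and 4750, and those labelled shARID1A/B.4.2 held 4555, 4592 and 4482. The shARID1B libraries, in which ARID1A alone was low, thus formed an intermediate tier between Control and the other 4 conditions. The log2 fold changes were 1.15, 0.98, 0.62, 0.67, 1.14 and 1.09 (SE 0.02 each), with adjusted p values of at most 1.01e-17 (limma). The mean of the shARID1A conditions exceeded that of the shARID1B conditions by 0.42 ± 0.02 (SE, adjusted p = 1.74e-17), and that of the shARID1A/B conditions exceeded it by 0.47 ± 0.02 (adjusted p = 1.26e-18). The SE and p of such label means cover the spread between libraries of a condition, not that between the 2 conditions of a label. The exons of THRA overlap those of NR1D1 on the opposite strand over 263 bases, 3.8% of the exon length of THRA and 9.5% of that of NR1D1, and the library kit kept strand. THRB, the thyroid hormone receptor beta gene, did not exceed 4.98 in any library.

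The 3 retinoic acid receptor genes did not move together. RARA, encoding RAR alpha, had a Control mean of 1523 ± 32.1 (SD, n = 3) and reached 2367, 2540 and 2526 in the libraries labelled shARID1A/B.2.3, a log2 fold change of 0.70 ± 0.04 (SE, limma adjusted p = 8.74e-14). It was also called higher in those labelled shARID1A.4 (0.49), shARID1A/B.4.2 (0.29), shARID1B.3 (0.23) and shARID1A.2 (0.15), but not in shARID1B.2 (0.02, adjusted p = 0.632), where the libraries overlapped Control. RARG, encoding RAR gamma, fell from 2090, 2047 and 2126 in Control to 1417, 1439 and 1328 in shARID1A.4 and to 1385, 1358 and 1398 in shARID1A/B.2.3. Its log2 fold changes were -0.37, -0.58, -0.05, -0.45, -0.60 and -0.50 in the order of the labels above, each called except that in shARID1B.2 (adjusted p = 0.31).

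RARB, encoding RAR beta and itself a classical retinoic acid target through the repeat printed above, was a gene of low level. Its normalised counts were 97.5, 102 and 82.2 in Control, 82.3, 88.6 and 80.2 in shARID1A.2, and 43.7, 45.2 and 38.9 in shARID1A.4. They were 67.4, 71.8 and 90.7 in shARID1B.2 and 62.7, 55.1 and 57.0 in shARID1B.3. They were 40.5, 34.4 and 39.9 in shARID1A/B.2.3 and 47.4, 51.8 and 46.8 in shARID1A/B.4.2. The shARID1A.2 and shARID1B.2 libraries overlapped Control, and the other 4 conditions lay wholly below it. The called log2 fold changes were -1.12 ± 0.14 in shARID1A.4 (adjusted p = 1.18e-07), -0.67 in shARID1B.3 (0.00019), -1.27 in shARID1A/B.2.3 (1.59e-08) and -0.93 in shARID1A/B.4.2 (2.39e-06). Between the hairpin sets of the shARID1A label the difference was 0.96 ± 0.14 (adjusted p = 1.26e-06). Without Control replicate 3 or without shARID1B.2 replicate 3, the value in shARID1B.2 became -0.39 (adjusted p = 0.0343) or -0.42 (adjusted p = 0.019), past the threshold, from -0.29 (adjusted p = 0.0702).

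Of the RXR genes, which encode the shared heterodimer partners, RXRA and RXRB moved in opposite directions in 4 conditions and in the same direction in 2. RXRA was 1474, 1597 and 1455 in Control and rose to 2185, 2051 and 2181.6 in shARID1A.4 and to 2246, 2395 and 2243 in shARID1A/B.2.3, log2 fold changes of 0.50 and 0.60 (SE 0.05). It fell to 1217, 1155 and 1225 in shARID1A.2 (-0.33), while in shARID1B.2 and shARID1B.3 it stood at -0.16 each, a call that was lost without Control replicate 2 (-0.12 in both, adjusted p = 0.0529 and 0.0552) and, in shARID1B.3, without its replicate 3 (-0.12, adjusted p = 0.0568). The shARID1B.2 value was -0.02 (adjusted p = 0.707) under scaling to total reads. In shARID1A/B.4.2 it rose to 1733, 1738 and 1648 (0.18, adjusted p = 0.00231), the condition in which RXRB was also called higher. The 2 conditions of the shARID1A label thus lay on opposite sides of Control. RXRB was 1703, 1665 and 1508 in Control, 2590, 2628 and 2748 in shARID1A.2, and 1119, 1082 and 1156 in shARID1A.4. It was 2347, 2365 and 2260 in shARID1B.2 and 1223, 1251 and 1215 in shARID1B.3. It was 1073, 1166 and 1135 in shARID1A/B.2.3 and 2063, 1820 and 1869 in shARID1A/B.4.2. None of these groups overlapped Control, and in each label 1 condition lay above and the other below it. On the log2 scale the changes were 0.71, -0.54, 0.52, -0.40, -0.53 and 0.24 (SE 0.05), and the differences within labels were 1.25 (adjusted p = 5.35e-18), 0.92 (5.05e-15) and -0.77 (1.17e-13). MYCN, the amplified oncogene of this line and one of the adrenergic markers, averaged 122676 in Control and 93294, 418088, 79339, 157306, 218568 and 85143 in the 6 conditions. It was above Control where RXRB was below it and below Control where RXRB was above it. SLC2A1 lay on the same side of Control as RXRB in all 6 conditions. The normalised counts of a library summed to 31245800 to 32815053 where RXRB was above Control and to 34891114 to 35677995 where RXRB was below it. The part of MYCN, SLC2A1 or these sums in the result was not tested. RXRG, the third family member, did not exceed 2.35 in any library.

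**Figure D3:**
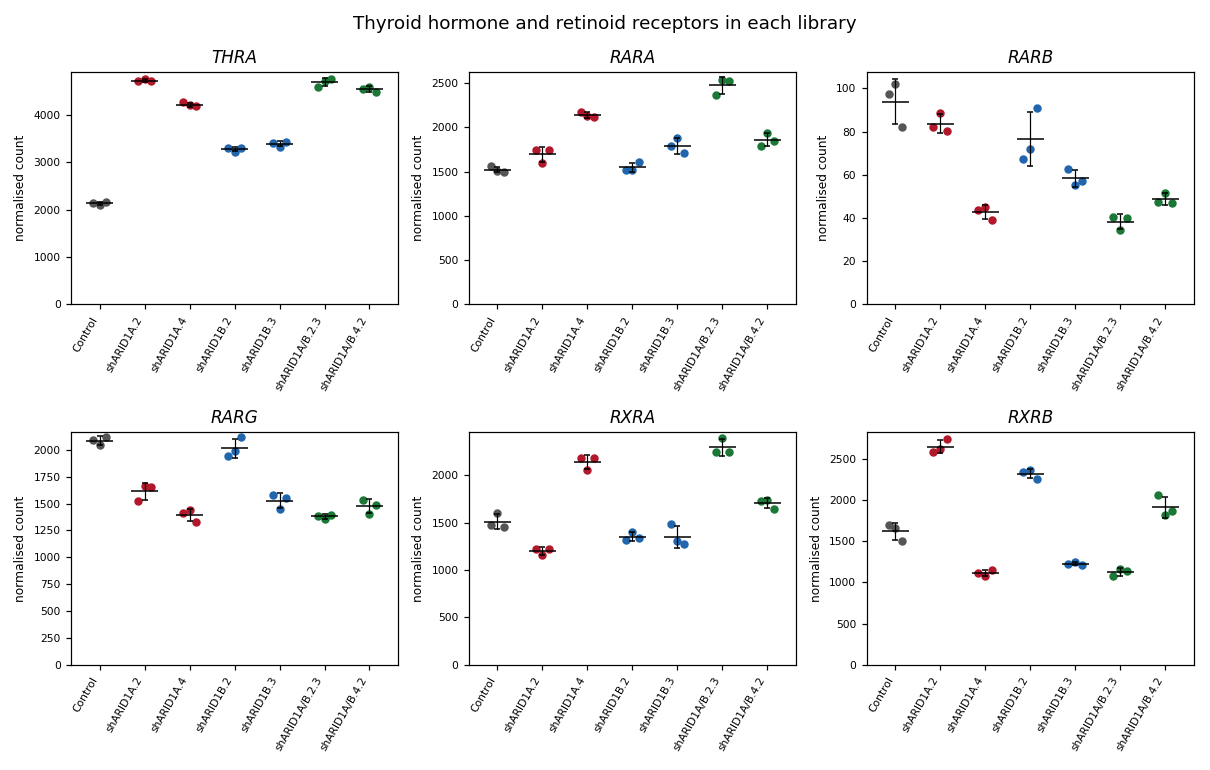
Normalised counts of THRA, RARA, RARB, RARG, RXRA and RXRB in each of the 21 libraries (points, coloured by label), with the condition mean and SD of 3 libraries (black). THRA lies above Control in every condition, and RXRB lies above Control in shARID1A.2, shARID1B.2 and shARID1A/B.4.2 and below it in the other 3 conditions.

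Genes of retinoid transport, synthesis and breakdown and known retinoic acid targets had more lower than higher calls in each condition. Of 24 listed, 16 were tested, and 4 rose and 7 fell in shARID1A.2, 3 and 9 in shARID1A.4, 2 and 7 in shARID1B.2, 0 and 9 in shARID1B.3, 3 and 9 in shARID1A/B.2.3, and 4 and 8 in shARID1A/B.4.2. Over all genes the higher share of calls was 48.0% to 50.9% in the 6 conditions. Under scaling to total reads the counts were 6 and 7, 4 and 8, 3 and 5, 1 and 9, 4 and 9, and 4 and 7, so that in shARID1A.2 they were nearly balanced. RET, a receptor tyrosine kinase gene induced by retinoic acid in neuroblastoma cells, fell from a Control mean of 30665 to 2066 in shARID1A.2 and to 18087 in shARID1A/B.2.3, and its log2 fold changes were -3.89, -3.03, -2.598, -1.71, -0.76 and -1.49, all called. CRABP2, which carries retinoic acid to RAR, fell in all 6 conditions, from 12718 in Control to between 4539 (shARID1A.4) and 10924 (shARID1B.2). TGM2, a transglutaminase gene, had log2 fold changes of -0.55, -0.94, -1.49, -2.01, -0.66 and 0.33, all called, and RARRES2, which encodes the adipokine chemerin, fell in the 4 shARID1A and shARID1A/B conditions and was not called in shARID1B.2 (0.13) or shARID1B.3 (-0.16). Of 14 listed genes of thyroid hormone transport and response, 9 were tested, and 3, 5, 4, 2, 5 and 3 rose while 4, 4, 4, 6, 2 and 5 fell. With scaling to total reads 4, 5, 4, 2, 7 and 3 rose while 3, 4, 4, 5, 1 and 2 fell. Among all genes tested, 31.3% to 37.6% were called higher and 31.9% to 38.1% lower across the conditions. DIO3, which inactivates thyroid hormone, fell in shARID1A.2 (-1.60), shARID1B.2 (-0.69) and shARID1A/B.4.2 (-0.46) and rose in shARID1A.4 (1.35) and shARID1A/B.2.3 (0.97), and the glucose transporter gene SLC2A1 rose in shARID1A.2 (1.19), shARID1B.2 (0.82) and shARID1A/B.4.2 (0.87) and fell in shARID1A.4 (-1.27), shARID1B.3 (-0.43) and shARID1A/B.2.3 (-0.42).

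Among the sterol and fatty acid sensors, NR1H2 was called higher in all 6 conditions. It encodes liver X receptor (LXR) beta, an oxysterol sensor that activates cholesterol export genes (ENSG00000131408.15, chr19:50329653-50382982, plus strand). Its normalised counts were 412, 463 and 404 in Control. They were 986, 898 and 991 in shARID1A.2, 1007, 1069 and 974 in shARID1A.4, 926, 1008 and 1034 in shARID1B.2, and 1112, 1218 and 1055 in shARID1B.3. They were 721, 710 and 716 in shARID1A/B.2.3 and 985, 981 and 951 in shARID1A/B.4.2. Every library of the 6 conditions exceeded the highest Control value, and shARID1A/B.2.3 rose least. Relative to Control, the log2 differences were 1.17, 1.25, 1.21, 1.40, 0.75 and 1.19 (SE 0.06), with adjusted p values of at most 1.73e-11. NR1H3, encoding LXR alpha, had a Control mean of 225 and moved both ways, with 0.32 in shARID1A.2, -0.57 in shARID1A.4, -0.46 in shARID1B.2, -0.68 in shARID1A/B.2.3 and 0.52 in shARID1A/B.4.2, all called, and -0.01 in shARID1B.3 (adjusted p = 0.965).

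In the list of LXR and PPAR lipid targets, 18 of 20 genes were tested, NR1H3 among them as it is also a receptor. Under the deposited scaling rises and falls were close to balanced, at 9 and 8, 8 and 9, 5 and 8, 6 and 8, 8 and 6, and 8 and 7. All genes tested rose in 31.3% to 37.6% and fell in 31.9% to 38.1% of cases. Scaling to total reads gave 10 and 7, 8 and 9, 7 and 4, 6 and 8, 9 and 6, and 10 and 3, so the balance depended on the scaling in shARID1B.2 and shARID1A/B.4.2. The cholesterol exporter genes within it differed. ABCA1 averaged 30.4 in Control and 183, 429, 110, 31.8, 212 and 89.0 in the 6 conditions, called everywhere except in shARID1B.3 (0.10 on the log2 scale, adjusted p = 0.608). ABCG1 rose in all 6 conditions, by 1.87, 1.84, 1.89, 0.56, 1.22 and 1.15. ABCG4, another sterol exporter gene of the list and not one named by the rule, rose in shARID1A.4 (0.43) and shARID1A/B.2.3 (1.27), fell in shARID1A.2 (-0.49) and shARID1B.3 (-1.98), and was chosen after its values were seen. LPCAT3, a phospholipid remodelling enzyme gene, rose in 5 conditions (0.44 to 1.40) and fell in shARID1B.3 (-0.19). ANGPTL4, a lipase inhibitor gene responsive to PPAR ligands, fell by 2.26, 2.14, 2.13, 1.57 and 1.24 on the log2 scale outside shARID1A/B.2.3, where it was not called (-0.27, adjusted p = 0.671). In shARID1B.3, where NR1H2 had its highest mean, the LXR targets ABCA1 and ABCG1 were closest to Control, whereas ABCG4 was furthest from it. A relation of these genes to NR1H2 was not tested.

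The peroxisome proliferator-activated receptor genes each followed another course. PPARA, encoding the fatty acid oxidation regulator, was 612, 569 and 642 in Control. It fell to 369, 379 and 347 in shARID1A.2, 306, 306 and 330 in shARID1A.4, 327, 287 and 331 in shARID1B.3, and 355, 343 and 338 in shARID1A/B.4.2. In shARID1B.2 it rose to 804, 748 and 777, above every Control library, and in shARID1A/B.2.3 it fell to 537, 515 and 535. In log2 units the changes were -0.73, -0.95, 0.35, -0.95, -0.20 and -0.81 (SE 0.06), and the 2 conditions of the shARID1B label differed by 1.302 (adjusted p = 9.62e-16). PPARD, a broadly expressed member, rose by 0.14 to 0.37 in 5 conditions. It stood at -0.10 in shARID1A/B.4.2 (adjusted p = 0.0472), and this call was lost without any 1 of Control replicate 1, Control replicate 2 or the 3 libraries of that condition (adjusted p from 0.0614 to 0.156, values from -0.08 to -0.10), and turned to 0.09 under scaling to total reads. The smaller rises of PPARD were also lost without shARID1A.2 replicate 3 (0.10, adjusted p = 0.0526) and without shARID1B.3 replicate 1 (0.10, adjusted p = 0.0597).

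PPARG, the adipogenic member, was low, at 20.0, 17.9 and 14.4 in Control. It was 41.6, 64.9 and 44.6 in shARID1A.2 and 7.77, 5.95 and 19.0 in shARID1A.4. It was 35.0, 31.3 and 28.5 in shARID1B.2 and 40.1, 47.9 and 29.03 in shARID1A/B.4.2. These last 2 conditions and shARID1A.2 lay above Control without overlap, while shARID1A.4 overlapped it through 1 library. The log2 fold changes were 1.46 ± 0.30 (adjusted p = 0.000105), -0.78 (0.0229), 0.83 (0.0177) and 1.10 (0.00208), with -0.07 in shARID1B.3 and 0.15 in shARID1A/B.2.3 not called. The fall in shARID1A.4 rested on single libraries, since without its replicate 2 it was -0.47 (adjusted p = 0.175), without its replicate 1 it was -0.63 (0.0923), and without Control replicate 1 or 2 it was -0.68 (0.0772) or -0.75 (0.0527). The rise in shARID1B.2 was not called without Control replicate 3 (0.70, adjusted p = 0.0716) or shARID1B.2 replicate 1 (0.76, adjusted p = 0.059).

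VDR, the vitamin D receptor gene, fell in 5 conditions. Its normalised counts were 43.5, 59.3 and 31.8 in Control and 35.8, 41.8 and 49.2 in shARID1B.3, which overlapped. They were 18.3, 7.21 and 8.91 in shARID1A.2, 20.4, 15.5 and 8.98 in shARID1A.4, and 14.0, 17.4 and 8.89 in shARID1B.2. They were 15.2, 17.7 and 14.6 in shARID1A/B.2.3 and 20.0, 20.1 and 17.8 in shARID1A/B.4.2. All 15 libraries of these 5 conditions lay below the lowest Control library. On the log2 scale the changes were -1.94, -1.55, -1.67, -1.41 and -1.13 (SE 0.32, adjusted p of at most 0.00313), and -0.05 in shARID1B.3 (adjusted p = 0.902). The 2 conditions of the shARID1B label differed by -1.62 ± 0.32 (adjusted p = 9.83e-05). HNF4G, a hepatocyte nuclear factor gene, was called only in shARID1A/B.4.2 (-0.68, adjusted p = 0.000315). In shARID1A.4 its value of -0.33 (adjusted p = 0.0518) passed the threshold without Control replicate 1 (-0.41, adjusted p = 0.0306) or without shARID1A.4 replicate 1 (-0.45, 0.0174) or 3 (-0.40, 0.0396), and in shARID1B.3 that of -0.31 did so without Control replicate 1 (-0.40, adjusted p = 0.0437).

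The clock-linked receptors comprise the repressors NR1D1 and NR1D2 (REV-ERB alpha and beta) and the activators RORA and RORB, which compete for the same elements of the ARNTL gene. NR1D2 fell in all 6 conditions, from 2770, 2594 and 2636 in Control to 1445, 1433 and 1363 in shARID1A.2 and 1600, 1516 and 1617 in shARID1A/B.4.2, with the other conditions between 1684 and 2054. No library reached the Control range. Relative to Control, the log2 differences were -0.92, -0.41, -0.59, -0.66, -0.40 and -0.76 (SE 0.03, adjusted p of at most 3.46e-11). NR1D1 was 545, 571 and 561 in Control, 459, 473 and 511 in shARID1A.2, and 1009, 1074 and 936 in shARID1A.4. It was 1055, 1009 and 1016 in shARID1B.2 and 825, 793 and 845 in shARID1B.3. It was 833, 852 and 825 in shARID1A/B.2.3 and 300.6, 278 and 255 in shARID1A/B.4.2. NR1D1 was thus above Control in 4 conditions and below it in shARID1A.2 and shARID1A/B.4.2, with log2 fold changes of -0.22, 0.85, 0.88, 0.55, 0.58 and -1.01 (SE 0.06), of which -0.22 shrank to -0.05 under scaling to total reads and was then not called.

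RORA fell in 5 conditions, by 0.36 to 0.97 on the log2 scale, and was 0.14 in shARID1B.2 (adjusted p = 0.193). Under scaling to total reads its fall in shARID1A.2 was not called (-0.19, adjusted p = 0.0656) and its value in shARID1B.2 was called higher (0.27, adjusted p = 0.0111). RORB fell in shARID1A.2 (-0.24), shARID1A.4 (-0.32) and shARID1A/B.4.2 (-0.79), where its counts were 1673, 1513 and 1663 beside 2807, 2821 and 2743 in Control, and it rose in shARID1B.2 (0.31) and shARID1B.3 (0.12). The fall of RORB in shARID1A.2 was not called under scaling to total reads (-0.07, adjusted p = 0.0855) or upper-quartile scaling (-0.06, adjusted p = 0.137). Of 18 listed clock partners, 16 were in the table and tested, with 4, 8, 7, 8, 6 and 5 higher and 10, 5, 6, 5, 6 and 10 lower. The shares of all genes were 31.3% to 37.6% higher and 31.9% to 38.1% lower. ARNTL, the clock activator repressed by the REV-ERB proteins, averaged 276 in Control and 1149, 273, 1005, 785, 184 and 587 in the 6 conditions, called in all but shARID1A.4 (adjusted p = 0.821). DBP, a clock output gene, rose in all 6 conditions (0.22 to 1.82), NPAS2, which encodes an alternative partner of ARNTL, fell in all but shARID1A/B.2.3 (-0.23, adjusted p = 0.252), and BHLHE40, a clock repressor gene, fell in shARID1A.2 (-1.47), shARID1B.2 (-1.21) and shARID1A/B.4.2 (-1.36) and rose in shARID1A.4 (1.31) and shARID1B.3 (0.98).

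In the subfamily of RXR-like and orphan receptors, NR2C2 (testicular receptor 4, ENSG00000177463.15, chr3:14947584-15053600, plus strand) fell in every condition but by unequal amounts. Its normalised counts were 2411, 2330 and 2314 in Control. They were 1534, 1598 and 1508 in shARID1A.2 and 844, 919 and 922 in shARID1A.4. They were 2010, 1911 and 1981 in shARID1B.2 and 2094, 2040 and 2035 in shARID1B.3. They were 916, 943 and 979 in shARID1A/B.2.3 and 1500, 1317 and 1370 in shARID1A/B.4.2. The shARID1B libraries lay just below Control, and the other 4 conditions lay wholly below the shARID1B libraries. How many of all genes were ordered in this way was not counted. In log2 units the changes were -0.60, -1.39, -0.26, -0.19, -1.31 and -0.75 (SE 0.04). The mean of the shARID1A conditions was lower than that of the shARID1B conditions by -0.77 ± 0.03 (adjusted p = 3.4e-17), and that of the shARID1A/B conditions was lower by -0.81 ± 0.03 (adjusted p = 9.08e-18), while the shARID1A and shARID1A/B means differed by 0.03 (adjusted p = 0.34). These SE and p values leave out the spread between the conditions of a label, such as -0.60 and -1.39 under shARID1A. Its exons overlap those of MRPS25 on the opposite strand over 1197 bases, 10.1% of its exon length. Its relative NR2C1 changed little, from -0.28 in shARID1B.3 to 0.04, and turned to the positive side in shARID1A.2 (0.05) and shARID1A/B.4.2 (0.11) under scaling to total reads. The NR2C1 calls in shARID1A.2 and shARID1A.4 were also lost without Control replicate 1 (-0.11 in both, adjusted p = 0.0574 and 0.0502) and without the first replicate of either condition (-0.10, 0.0608, and -0.09, 0.08).

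Among the COUP transcription factor genes, NR2F2 and NR2F1 were higher where called, and NR2F6 was called higher in 4 conditions and lower in 1. NR2F2 (COUP-TFII, a regulator of mesenchymal and vascular development) rose from 934, 979 and 985 in Control to between 1103 and 1661 in the 18 other libraries, with log2 fold changes of 0.58, 0.76, 0.51, 0.43, 0.54 and 0.23 (SE 0.04). No library overlapped Control. The mesenchymal markers summed to 64453 in Control, of which VIM made 54216, and to between 37971 and 73733 in the other conditions. FN1, TWIST1 and YAP1 averaged below Control in every other condition, while VIM and SNAI2 went both ways. The part of these markers in the NR2F2 values was not tested. NR2F1 (COUP-TFI) rose in shARID1A.4 (0.47), shARID1A/B.2.3 (0.36) and shARID1A/B.4.2 (0.32), and its call in shARID1A.2 (0.19, adjusted p = 0.0381) was lost without Control replicate 1 or 3 or without shARID1A.2 replicate 2 or 3 (0.14, 0.17, 0.18 and 0.15, adjusted p from 0.0783 to 0.158). NR2F6 (EAR2) rose in shARID1A.4 (0.50), shARID1A/B.2.3 (0.51) and shARID1A/B.4.2 (0.19). It was called lower in shARID1A.2 (-0.17), a value that went to 0.00 under scaling to total reads, and its call in shARID1B.3 (0.12) was lost without Control replicate 1 or 2 or shARID1B.3 replicate 1 (0.09, 0.12 and 0.08).

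The steroid receptor genes were low apart from NR3C1. NR3C1, the glucocorticoid receptor gene (chr5:143277931-143435512, minus strand), was 519, 482 and 485 in Control. It was 278, 307 and 255 in shARID1A.2, 202, 195 and 213 in shARID1A.4, and 261, 257 and 243 in shARID1B.2. It was 355, 373 and 356 in shARID1B.3, 269, 280 and 257 in shARID1A/B.2.3, and 300.6, 311 and 269 in shARID1A/B.4.2. All 18 libraries lay below Control, with shARID1B.3 nearest to it. The log2 fold changes were -0.83, -1.28, -0.96, -0.45, -0.88 and -0.75 (SE 0.07, adjusted p of at most 5.51e-06). Of 17 listed glucocorticoid receptor targets and chaperones, 15 were tested, and 5, 8, 3, 13, 7 and 1 rose while 9, 5, 9, 0, 7 and 11 fell. With scaling to total reads 5, 10, 4, 13, 7 and 4 rose while 8, 4, 5, 0, 7 and 8 fell. Across the conditions, 31.3% to 37.6% of all genes were called higher and 31.9% to 38.1% lower. TSC22D3 (GILZ), a classical glucocorticoid-induced gene, rose in all 6 conditions, by 1.15, 1.46, 0.68, 0.41, 0.80 and 0.85, from a Control mean of 738. SGK1, a kinase gene induced by glucocorticoids and by other signals, averaged 5020 in Control and 1678, 11008, 3496, 11797, 7642 and 2279 in the 6 conditions, all called.

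ESR2, ESRRB and NR3C2 were counted from single reads in Control. ESR2, the oestrogen receptor beta gene, had 3 reads over the 3 Control libraries and 30, 17, 24, 12, 22 and 17 in the 6 conditions. The depth-adjusted ratios to Control were 8.85 (95% counting interval 2.75 to 45.3), 5.36 (1.55 to 28.6), 6.95 (2.11 to 36), 3.38 (0.913 to 18.7), 6.7 (2.01 to 35) and 4.45 (1.29 to 23.7), where intervals cover counting error only. All 6 were called higher by limma, but the call in shARID1B.3 (adjusted p = 0.0337) was lost without Control replicate 1 (0.199) or 3 (0.0509) or shARID1B.3 replicate 1 (0.0514) or 2 (0.194), and that in shARID1A/B.4.2 without Control replicate 1 (0.0527). ESR2 exons share 523 bases with AL161756.1 on the same strand, so its reads are uncertain. ESRRB had 4 Control reads and 44, 3, 20, 9, 6 and 30 in the 6 conditions, with ratios of 9.73 (3.54 to 37.3) in shARID1A.2, 4.34 (1.45 to 17.5) in shARID1B.2 and 5.89 (2.08 to 23) in shARID1A/B.4.2, the 3 conditions in which it was called, the shARID1B.2 call not without its replicate 3 (adjusted p = 0.101). NR3C2, the mineralocorticoid receptor gene, had 6 Control reads and was called in shARID1A.2 (ratio 3.83, 1.54 to 11.4) and shARID1A/B.4.2 (2.75, 1.07 to 8.33). Its shARID1A.2 call was lost without replicate 2 of that condition (adjusted p = 0.0639), and its shARID1A/B.4.2 call without Control replicate 1 (0.159) or 3 (0.0815) or without replicate 1 (0.156) or 2 (0.0953) of that condition. The NR3C2 value in shARID1A.4 passed the threshold without Control replicate 2 (adjusted p = 0.0378) or shARID1A.4 replicate 3 (0.0236).

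The oestrogen-related receptor genes ESRRA and ESRRG, regulators of mitochondrial energy metabolism, were abundant. ESRRG had the highest normalised counts of the family in Control, 4262, 4142 and 4155, and was 2678, 2826 and 2629 in shARID1A.2, 2823, 2861 and 2854 in shARID1A/B.2.3, and 2233, 2237 and 2219 in shARID1A/B.4.2. These 9 libraries lay below Control, with log2 fold changes of -0.63, -0.56 and -0.91 (SE 0.03), and shARID1B.2, at 3582, 3608 and 3487, lay below it as well (-0.23). In shARID1B.3 the libraries rose to 4998, 4757 and 4965 (0.23). Its value in shARID1A.4 was -0.06 (adjusted p = 0.0378), which was not called without Control replicate 1 or 3 or without shARID1A.4 replicate 1 or 2 (values from -0.05 to -0.07, adjusted p from 0.0514 to 0.14). ESRRA rose in the libraries labelled shARID1A.2 (0.30), shARID1A.4 (0.37), shARID1A/B.2.3 (0.25) and shARID1A/B.4.2 (0.52) and was not called in shARID1B.2 (0.03) or shARID1B.3 (0.11).

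**Figure D4:**
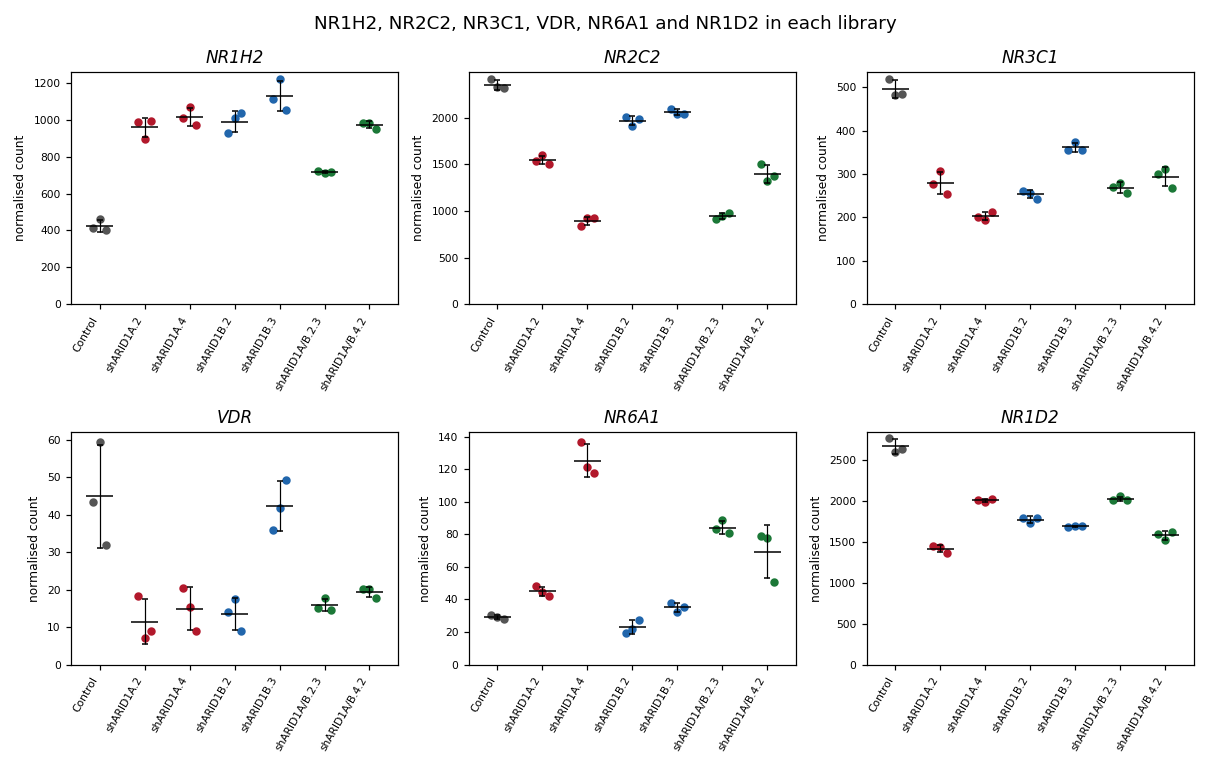
Normalised counts of NR1H2, NR2C2, NR3C1, VDR, NR6A1 and NR1D2 in each of the 21 libraries (points, coloured by label), with the condition mean and SD of 3 libraries (black). NR1H2 lies above Control and NR2C2, NR3C1 and NR1D2 lie below it in every condition, while VDR overlaps Control in shARID1B.3 and NR6A1 is high in the shARID1A and shARID1A/B libraries.

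NR6A1, the germ cell nuclear factor gene (ENSG00000148200.17, chr9:124517275-124771310, minus strand), was higher in the shARID1A and shARID1A/B libraries than in the shARID1B and Control libraries. Its normalised counts were 30.5, 29.1 and 27.7 in Control, 19.3, 22.0 and 27.6 in shARID1B.2, and 37.8, 32.3 and 35.4 in shARID1B.3. They were 48.2, 44.3 and 42.3 in shARID1A.2 and 137, 121 and 118 in shARID1A.4. They were 83.0, 88.6 and 80.8 in shARID1A/B.2.3 and 79.3, 78.0 and 50.6 in shARID1A/B.4.2. The 12 libraries in which ARID1B was low lay above all 9 others, and the share of all genes parted in this way was not counted. On the log2 scale the changes were 0.61 ± 0.17, 2.07, 1.499 and 1.19 in the shARID1A.2, shARID1A.4, shARID1A/B.2.3 and shARID1A/B.4.2 libraries, and those of -0.34 (adjusted p = 0.0778) in shARID1B.2 and 0.26 (adjusted p = 0.182) in shARID1B.3 were not called, although without shARID1B.2 replicate 3 the former reached -0.48 (adjusted p = 0.0255). The shARID1A mean exceeded the shARID1B mean by 1.38 ± 0.12 (adjusted p = 2.23e-10), and the shARID1A/B mean exceeded it by 1.39 ± 0.12 (adjusted p = 1.58e-10). The shARID1A and shARID1A/B means differed by -0.01 ± 0.12 (adjusted p = 0.951). The 2 conditions of the shARID1A label themselves lay far apart, at 0.61 and 2.07, and the SE and p of the label means leave out this spread.

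Over the 33 receptor genes, 23 were called between the shARID1A and shARID1B means (67.0% of all genes), 25 between shARID1A/B and shARID1B (69.8%), and 20 between shARID1A and shARID1A/B (58.9%). With a difference of at least 1 in size the numbers were 1 (5.82%), 2 (7.78%) and 0 (3.42%) in the same order. The gene in the first of these was NR6A1, and those in the second were NR6A1 and NR0B1. All of these calls use the spread between libraries of a condition and leave out that between the 2 conditions of a label.

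The NR4A genes encode orphan receptors that are induced within the first hour of many stimuli and act without a known ligand. NR4A1 (Nur77) was 766, 777 and 709 in Control. It was 270, 286 and 288 in shARID1A.2 and 1539, 1528 and 1532 in shARID1A.4. It was 734, 765 and 759 in shARID1B.2 and 1127, 1150 and 1148 in shARID1B.3. The shARID1A conditions lay far on opposite sides of Control, and shARID1B.2 overlapped it. It was 1199, 1236 and 1291 in shARID1A/B.2.3 and 467, 462 and 471 in shARID1A/B.4.2, again on opposite sides. Relative to Control, the log2 differences were -1.41, 1.03, 0.00, 0.61, 0.73 and -0.68 (SE 0.04), and the differences within the labels were -2.44 (adjusted p = 8.23e-25), -0.60 (2.27e-12) and 1.41 (5.01e-20).

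NR4A2 (Nurr1, a factor of dopaminergic neurons) was 139, 157 and 164 in Control and rose to 702, 723 and 747 in shARID1A.4, 464, 416 and 434 in shARID1B.3, and 257, 264 and 260 in shARID1A/B.2.3, log2 fold changes of 2.24, 1.51 and 0.76 (SE 0.07). In the other 3 conditions the libraries lay between 153 and 185, with 0.13 and 0.10 in shARID1A.2 and shARID1B.2 not called and 0.23 in shARID1A/B.4.2 called (adjusted p = 0.00811), though not without Control replicate 1 (0.16, adjusted p = 0.0702). Without Control replicate 3 the value in shARID1A.2 was called (0.19, adjusted p = 0.0427). NR4A3 (NOR1), low in Control at 7.05, 7.83 and 10.3, reached 42.7, 39.2 and 49.9 in shARID1A.4 and 43.5, 46.9 and 29.2 in shARID1A/B.2.3. In the other conditions it lay between 11.8 and 29.4, above every Control library. In log2 units the changes were 0.96, 2.27, 0.91, 0.69, 2.11 and 1.11 (SE 0.28), all called. The call in shARID1B.3 (adjusted p = 0.0346) was lost without Control replicate 1 or 2 or shARID1B.3 replicate 2 or 3 (0.58, 0.65, 0.63 and 0.69, adjusted p from 0.0636 to 0.109).

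Among 18 tested of 19 listed immediate early genes, with which the NR4A genes are grouped, 2 rose and 16 fell in the libraries labelled shARID1A.2, 10 and 6 in shARID1A.4, 3 and 12 in shARID1B.2, 10 and 6 in shARID1B.3, 6 and 10 in shARID1A/B.2.3, and 4 and 12 in shARID1A/B.4.2. For all genes tested, 31.3% to 37.6% rose and 31.9% to 38.1% fell. EGR1, a zinc finger factor gene of this class, averaged 2795 in Control and 440, 5852, 1400, 7059, 2209 and 312 in the 6 conditions. ATF3, a stress-induced factor gene, averaged 201 and 75.9, 818, 74.2, 283, 705 and 147. EGR3 had log2 fold changes of -2.79, 0.40, -1.41, 1.17, -0.89 and -4.11, all called except that in shARID1A.4, and IER3, an apoptosis regulator gene, fell in all 6 conditions (-0.998 to -2.94).

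NR0B1 (DAX1) lacks a DNA-binding domain of the usual kind and represses other receptors, and NR0B2, its relative, was below the mean of 5. NR0B1 was 136, 146 and 170 in Control. It was 108, 94.8 and 105 in shARID1A.2 and 310, 294 and 276 in shARID1A.4. It was 184, 191 and 201 in shARID1B.2 and 335, 352 and 310 in shARID1B.3. All 4 of these conditions lay outside the Control range, shARID1A.2 below and the others above. It was 188, 198 and 184 in shARID1A/B.2.3 and 52.8, 57.2 and 49.6 in shARID1A/B.4.2. The log2 fold changes were -0.55, 0.96, 0.35, 1.14, 0.34 and -1.48 (SE 0.09, adjusted p of at most 0.00238). Within labels the differences were -1.51 (adjusted p = 1.7e-13), -0.79 (4.95e-08) and 1.82 (4.3e-15).

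**Figure D5:**
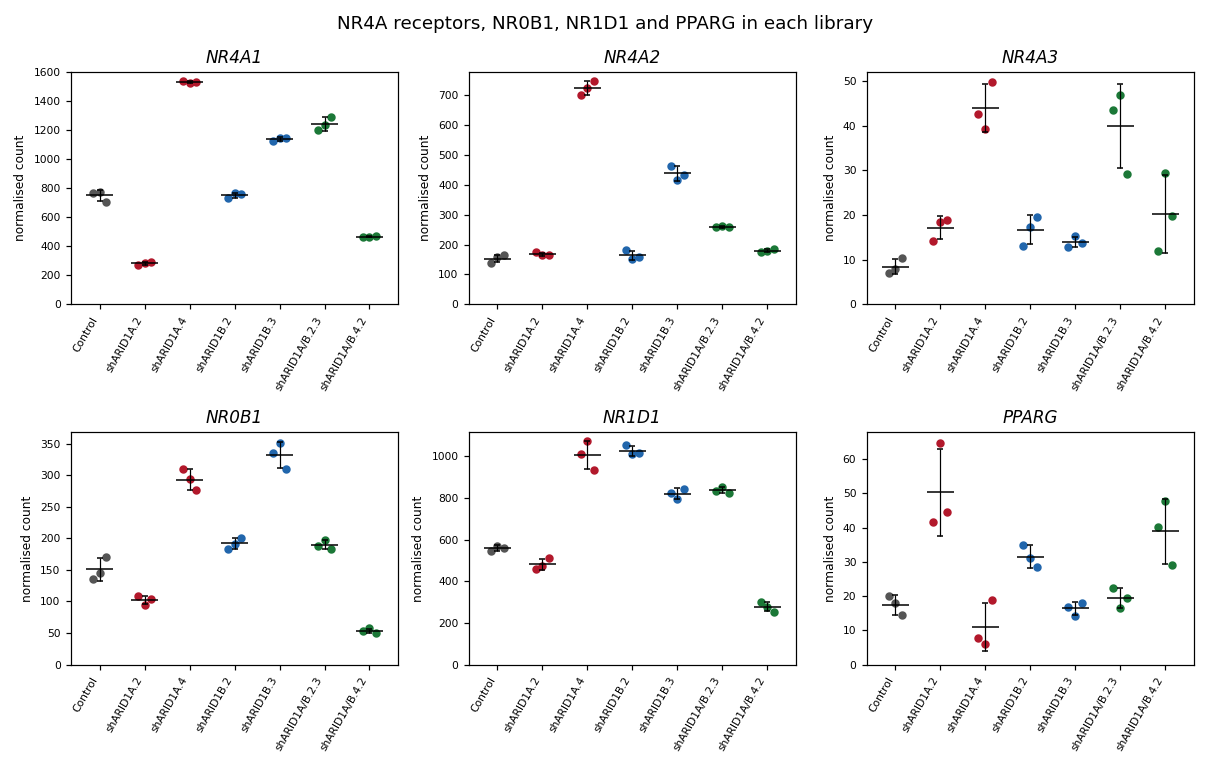
Normalised counts of NR4A1, NR4A2, NR4A3, NR0B1, NR1D1 and PPARG in each of the 21 libraries (points, coloured by label), with the condition mean and SD of 3 libraries (black). NR4A1 and NR0B1 lie on opposite sides of Control in the conditions of the shARID1A label and of the shARID1A/B label, while NR4A3 lies above Control in every condition.

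Conditions that share a label also differed from each other. Of the 33 receptor genes, 26 were called between shARID1A.2 and shARID1A.4 (75.2% of all genes), 23 between shARID1B.2 and shARID1B.3 (65.7%), and 25 between shARID1A/B.2.3 and shARID1A/B.4.2 (74.4%). At a difference of at least 1 in size the numbers were 9 (23.4%), 4 (13.5%) and 5 (21.8%). Calls in opposite directions against Control that were also at least 1 apart were made for 5 genes under the shARID1A label (PPARG, NR1D1, RXRB, NR4A1 and NR0B1, 8.03% of all genes), 1 under the shARID1B label (PPARA, 4.68%) and 4 under the shARID1A/B label (NR1D1, NR1H3, NR4A1 and NR0B1, 8.03%). PPARG left the first group with edgeR and DESeq2, where its shARID1A.4 call was lost (adjusted p = 0.124 and 0.151), and NR1D1 left it under scaling to total reads, where its shARID1A.2 call was lost (adjusted p = 0.444) and NR1H3 entered. Under that scaling the shARID1B group numbered 3 (PPARA, RORA and RXRB). The 2 conditions within a label share the Control libraries.

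Corepressor and coactivator genes, which carry the transcriptional output of the receptors, had more lower than higher calls in each condition under the deposited scaling. All 24 listed were tested, and 6, 10, 7, 7, 11 and 5 rose while 17, 14, 15, 13, 12 and 14 fell, with median log2 fold changes of -0.30, -0.26, -0.22, -0.08, -0.10 and -0.16. Beside these, 31.3% to 37.6% of all genes were called higher and 31.9% to 38.1% lower. Scaling to total reads gave 7, 10, 9, 7, 11 and 10 higher and 13, 14, 12, 12, 12 and 9 lower. No gene of this list was called with a change of at least 1 in size in both conditions of a label.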

How the data were processed

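RNA of 21 SK-N-BE(2) libraries, 3 for each of 7 conditions, was sequenced from stranded poly(A) libraries. The authors deposited 1 table of gene signal values, which are gene counts divided by a size factor for each library. The submitters' processing notes name STAR 2.5.3a, RSEM 1.3.0, DESeq2 1.26.0 and GRCh38. Whole reads were recovered from the steps of the values (100% within 0.05 of a whole read), giving 27954334 to 41077638 reads per library, median 34973565, so that intervals cover counting error only. Files of the authors' own comparisons hold fold changes and p values and were not used.

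Receptor genes were matched by symbol, and coordinates and exon lengths were taken from GENCODE 29 by gene identifier (58541 of 60728 identifiers matched, and all 46 receptor genes). Values were tested as log2(value + 1) with limma 3.58.1 (R 4.3.3, with a mean-variance trend), over 18615 genes with a mean of at least 5, in 1 fit of the 7 conditions, with Benjamini-Hochberg adjustment over all tested genes. Fold changes on this scale understate those of low genes. A check of the test on simulated data is not reported here. Receptor genes with an adjusted p below 0.05 and a log2 fold change of at least 1 in size in any condition, and all thyroid and retinoid receptors, were named with values. From each pathway list, up to 4 genes were named, those with the largest mean size of log2 fold change over the 6 conditions among genes past both thresholds in both conditions of at least 1 label. The members and lists were chosen with earlier results of these data known. Alternatives were other pseudocounts, filters and scalings, edgeR 4.0.16 and DESeq2 1.42.0 on the recovered reads, fits of each condition with Control alone, a replicate block and leaving out each library. The counts over genes with a Control mean of at least 5, and those of direction patterns and pathway lists under other settings, were added after the data were seen. Promoter stretches were read from RefSeq windows. Libraries of 1 condition differed by more than sampling noise (chi-square per degree of freedom 1.55 to 4.26 over 21 pairs). Python 3.11.15 with pandas 2.3.3 and matplotlib 3.10.9 was used for tables and figures.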

Additional observations from a re-analysis of the deposited data

Results flagged for a closer look

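These receptor genes were called in opposite directions against Control in the 2 conditions of 1 label, and the difference between the conditions was itself tested (limma, 3 libraries in each condition) and was at least 1 in size. For shARID1A.2 minus shARID1A.4, PPARG differed by 2.24 (1.46 and -0.78 against Control), RXRB by 1.25 (0.71 and -0.54), NR1D1 by -1.06 (-0.22 and 0.85), NR0B1 by -1.51 (-0.55 and 0.96) and NR4A1 by -2.44 (-1.41 and 1.03). For shARID1B.2 minus shARID1B.3, PPARA differed by 1.302 (0.35 and -0.95). For shARID1A/B.2.3 minus shARID1A/B.4.2, NR1D1 differed by 1.59 (0.58 and -1.01), NR1H3 by -1.20 (-0.68 and 0.52), NR4A1 by 1.41 (0.73 and -0.68) and NR0B1 by 1.82 (0.34 and -1.48). The adjusted p values ran from 8.23e-25 (NR4A1) to 2.84e-07 (PPARG), and in each case every library of 1 condition lay apart from every library of the other. The genes were chosen by these same calls, so the p values and the separation are no further support. The opposite direction of PPARG rested on a shARID1A.4 value that was not called with edgeR (adjusted p = 0.124), with DESeq2 (0.151) or without 1 of 4 single libraries (0.0527 to 0.175), and that of NR1D1 under the shARID1A label on a shARID1A.2 value that was not called under scaling to total reads (-0.05, 0.444) or upper-quartile scaling (-0.04, 0.569).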

How the results depend on the processing

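The counts of called receptor genes in the 6 conditions stayed within 1.5 times of those reported under every alternative. DESeq2 called 29, 28, 21, 21, 27 and 28 and edgeR 30, 28, 21, 23, 27 and 31. Counts at a change of at least 1 in size moved further in shARID1A.2 (8 to 5) and shARID1B.2 (4 to 2) with a mean of at least 20, which removes low genes, in shARID1A/B.4.2 (11 to 6) with a pseudocount of 5, and between the shARID1A and shARID1B means (1 to 2) with edgeR. Leaving out 1 library gave 28 to 30, 28 to 32, 20 to 22, 21 to 23, 27 to 27 and 28 to 31 called genes in the 6 conditions. At a change of at least 1 it gave 7 to 9, 10 to 13, 3 to 5, 3 to 5, 7 to 7 and 8 to 10, and 1 to 3 between the shARID1A and shARID1B means, with 3 without shARID1A.2 replicate 1 and 2 without shARID1A.4 replicate 1 or shARID1B.2 replicate 3. Scaling to total reads and upper-quartile scaling raised the median of all genes by 0.17 and 0.18 in shARID1A.2, 0.14 and 0.12 in shARID1B.2, and 0.19 and 0.16 in shARID1A/B.4.2. The share of calls that were higher went from 49.7% to 61.1% and 61.7%, from 48.0% to 63.0% and 61.0%, and from 49.1% to 64.8% and 63.0%. Under these scalings ARID1A in shARID1A/B.4.2 was not called (-0.027 and -0.051).

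Directions turned only under these scalings. Under both, in that order, PPARD in shARID1A/B.4.2 became 0.091 and 0.068, NR2C1 in shARID1A.2 0.048 and 0.058, NR2F6 in shARID1A.2 0.000 and 0.011, and the THRA difference of shARID1B.2 minus shARID1B.3 0.056 and 0.005. Under total reads alone NR2C1 in shARID1A/B.4.2 became 0.11, and the differences of shARID1A/B.2.3 minus shARID1A/B.4.2 became -0.108 for THRA and -0.032 for NR2C1. Under upper-quartile scaling alone ESRRG in shARID1A.4 became 0.022. The cause of the other changes was not tested. The replicate numbers of the labels did not pair the libraries (correlations of deviations from -0.16 to 0.06, 0 of 18 over 0.1). With a replicate block, 30, 31, 21, 24, 27 and 31 receptor genes were called. Genes under about 10 reads per library, such as ESR2, ESRRB and NR3C2, were limited by depth.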
